A study of Mus musculus with 2 samples.

Results

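The 9 genes described here encode 6 ligands of the epidermal growth factor (EGF) family, Areg, Hbegf, Ereg, Tgfa, Btc and Egf, and 3 ErbB receptors, Egfr, Erbb2 and Erbb3. They were chosen by name among the 32285 genes of a single-cell RNA data set of mouse mammary tumours, and all 9 had counts. The data are 2 droplet libraries, 1 per group, from tumours of 4T1 cells, a mouse mammary carcinoma line that serves as a triple-negative breast cancer model. The control group grew from 4T1 cells with a control guide RNA (genotype WT), and the other group from 4T1 cells with a guide against Kindlin-2 (K2-KO), the integrin adaptor encoded by Fermt2. In both groups the cells were injected into the fat pads of the mammary glands of BALB/c females, and tumours were taken at 150 mm3 and digested for 45 min at body temperature before live cells were sorted by mCherry. The number of tumours in each library, the age of the mice, the number of knockout clones and the sorted fractions that were loaded are not given in the sources used here. The labels call the cells TNBC cells, but both libraries also held host cells.

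EGF family ligands are made as membrane-anchored precursors that proteases of the ADAM family release. Amphiregulin (Areg), transforming growth factor alpha (Tgfa) and EGF bind the EGF receptor, while heparin-binding EGF (Hbegf), betacellulin (Btc) and epiregulin (Ereg) bind the EGF receptor and ErbB4. ErbB2 has no known ligand of its own and pairs with the other receptors, and ErbB3, which binds neuregulins, has a weak kinase and signals through its partner. In the mammary gland, amphiregulin from oestrogen-responsive luminal cells acts on EGF receptor in the stroma during duct growth, and regulatory T cells and mast cells are known immune sources of it.

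After filtering, 7541 control and 6760 knockout cells were analysed. They were divided into 28 clusters without use of the 9 genes, and clusters were named from marker genes. The tumour epithelial-like class had 3823 control and 2335 knockout cells, at median depths of 35984 and 40957 unique molecular identifiers (UMIs) per cell. Levels are UMIs summed over the cells of a class and scaled to the class total in CPM, with exact 95% Poisson intervals. Differences are log2 ratios of CPM, knockout over control, and a gene was called when the ratio was at least 1.5-fold with at least 20 UMIs over both libraries. With 1 library per group no test was possible. All intervals cover counting error only, not differences between tumours. The tumour clusters differed in share between the libraries: clusters 1 and 5, led by Mt2, Ibsp and Csf3 and by Nhs, Sesn3 and Mgp, held 25.7% and 26.8% of the control tumour cells against 2.57% and 6.21% of those of the knockout, and cluster 8, led by Ghr, held 13.4% and 49.3%. Ratios within clusters are therefore given beside those of the class for the members and for the called genes of the pathway lists. Fermt2 stood at 40.7 CPM in control and 13.7 CPM in knockout tumour cells, a log2 ratio of -1.57 (-1.65 to -1.49), and its ratios within the 6 tumour clusters lay between -1.80 and -1.33. Fermt2 RNA was thus still present in the tumour cells of the K2-KO library, and these counts do not show how much protein remained.

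Areg, Ereg and Btc are neighbours on chromosome 5, together with the family gene Epgn (epigen), within 375.5 kb (mm10, GENCODE annotation). Areg lies on the plus strand at chr5:91139599-91148432, Ereg on the plus strand at chr5:91074622-91093646 and Btc on the minus strand at chr5:91357261-91402994. Areg and Btc both had their highest level in the Wfdc18 mammary gland-like cells, whereas Ereg had its highest level in fibroblast-like cells. For this reason the 250 bases before the start sites of Areg (chr5:91139349-91139598, plus strand) and Btc (chr5:91402995-91403244, minus strand) are shown from RefSeq (GRCm38.p6), 5′ to 3′, with the letters of any motif found in capitals.
Areg: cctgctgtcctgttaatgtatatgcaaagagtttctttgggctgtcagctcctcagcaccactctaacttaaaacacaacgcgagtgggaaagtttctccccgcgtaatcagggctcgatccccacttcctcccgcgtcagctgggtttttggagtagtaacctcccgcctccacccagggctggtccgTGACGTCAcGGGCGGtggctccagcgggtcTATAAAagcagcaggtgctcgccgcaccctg
Btc: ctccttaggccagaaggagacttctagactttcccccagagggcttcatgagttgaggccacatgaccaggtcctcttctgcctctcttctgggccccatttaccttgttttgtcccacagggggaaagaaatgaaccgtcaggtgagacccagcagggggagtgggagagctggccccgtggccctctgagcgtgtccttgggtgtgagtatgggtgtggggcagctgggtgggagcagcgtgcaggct
The motifs searched on both strands were the CRE motif TGACGTCA, the AP-1 motif TGACTCA, the core promoter box TATAAA, the TEAD motif GGAATG and the SP1 motif GGGCGG. In the Areg window TGACGTCA began 61 bases before the start, GGGCGG 52 bases and TATAAA 31 bases before it, with no overlap between them. The Btc window held none of the 5. Among 27025 genes with a RefSeq window of the same length, TGACGTCA was found in 1.62%, TGACTCA in 4.43%, TATAAA in 12.97%, GGAATG in 12.6% and GGGCGG in 32.9%. RefSeq windows were matched for 6 of the 9 genes. The Tgfa and Egfr windows held GGGCGG and the Erbb2 window GGAATG. A match is a description of letters and not a site of binding.

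Tumour cells held most of the UMIs of 5 members in both libraries. They accounted for 87.5% of the control and 70.5% of the knockout UMIs of Areg, 95.8% and 93.9% of those of Hbegf, 98.5% and 96.7% of those of Tgfa, 85.2% and 76.8% of those of Btc, and 95.2% and 89.7% of those of Erbb2. Ereg was a fibroblast ligand in these samples, with 89.7% and 95.8% of its UMIs in fibroblast-like cells. Egf UMIs were divided between tumour cells (38.3% and 29.0%) and the 3 dendritic classes (34.2% and 47.7%). Egfr was the member whose location differed most in the plot of UMIs by cell class: tumour cells held 47.4% of its control UMIs and 4.29% of its knockout UMIs. These percentages depend on how many cells of each class were in a library as well as on the level per cell.

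**Figure D1:**
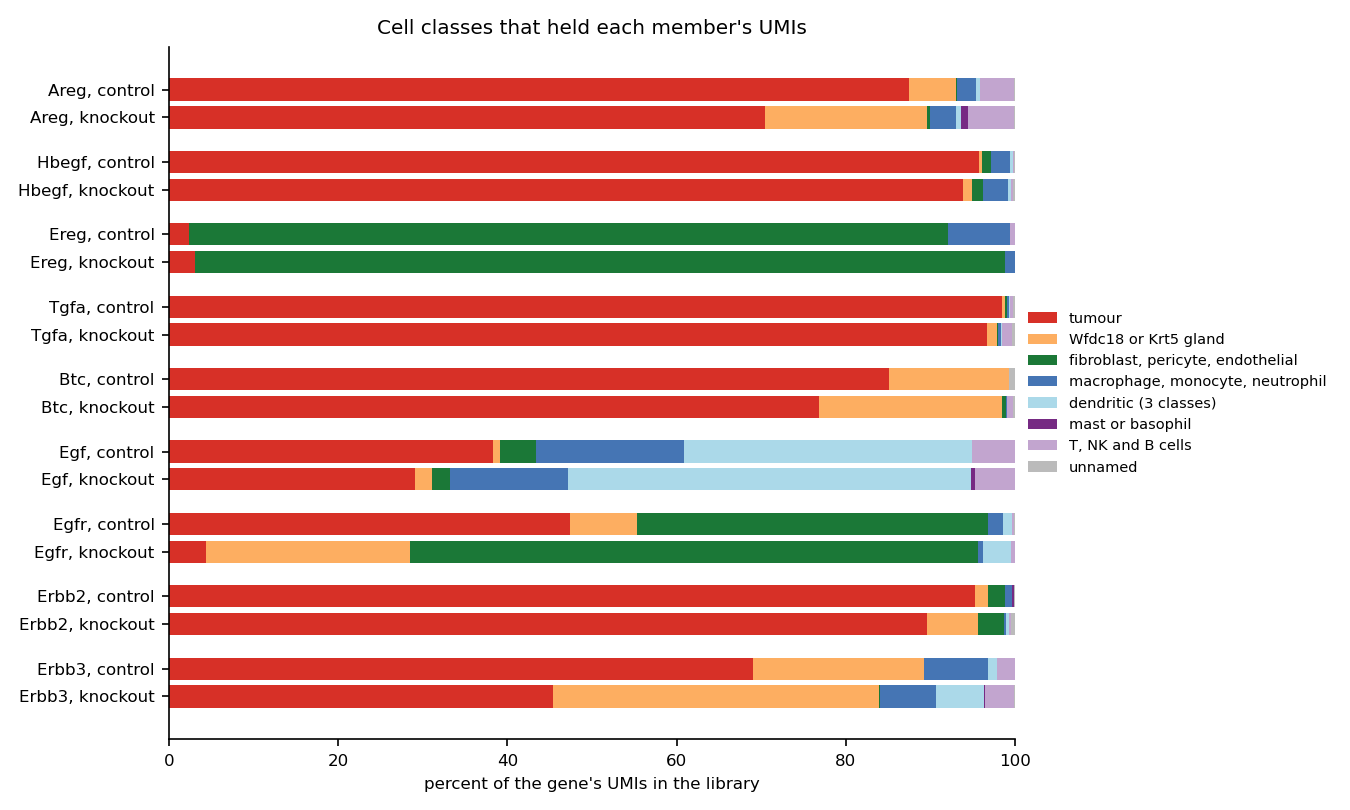
Percent of each member's UMIs (x axis) held by groups of cell classes, in 1 bar per gene and library. Tumour cells dominate Hbegf, Tgfa and Erbb2 in both libraries, fibroblast-like cells dominate Ereg, and the tumour part of Egfr is 47.4% in the control and 4.29% in the knockout bar.

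**Figure D2:**
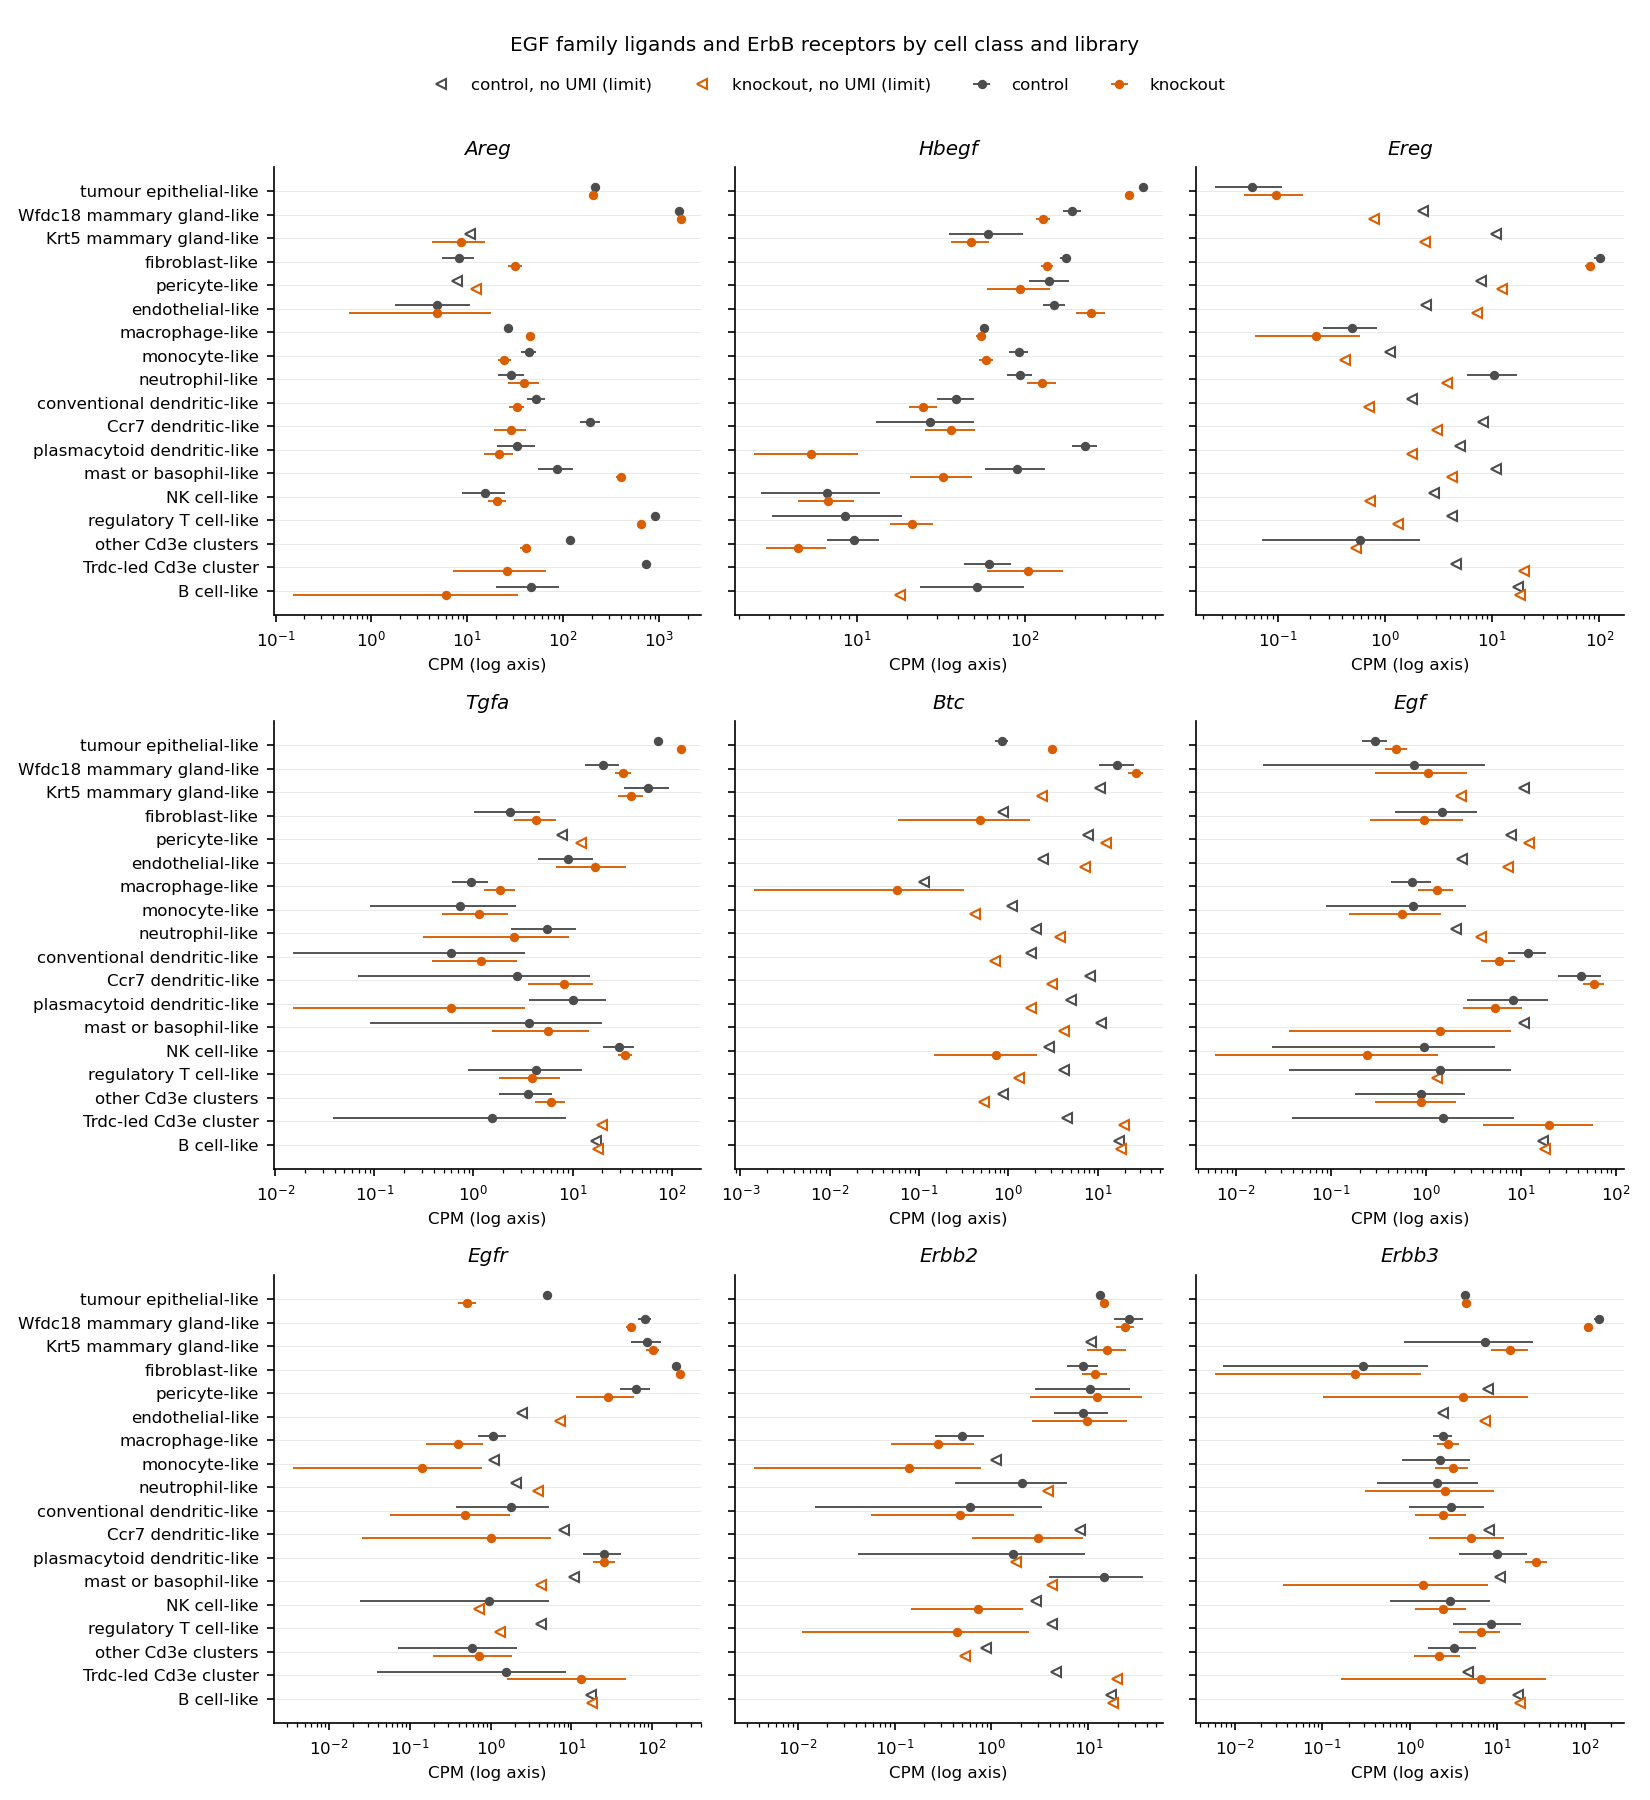
CPM (x axis, logarithmic, with a separate range for each gene) in 18 cell classes, with control and knockout points and exact 95% Poisson intervals; open triangles mark classes without a UMI, drawn at the level of 3 counts. Areg is highest in Wfdc18 mammary gland-like cells, Hbegf and Tgfa in tumour cells, Ereg and Egfr in fibroblast-like cells, and Erbb3 in Wfdc18 mammary gland-like cells.

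Areg, a ligand of the EGF receptor, was highest in the Wfdc18 mammary gland-like cells, a cluster of 48 control and 110 knockout cells led by the milk protein gene Wfdc18 and the prolactin receptor gene Prlr. Its level there was 1617 CPM (1550 to 1687) against 1695 CPM (1654 to 1737), control first, a log2 ratio of 0.07 (-0.00 to 0.14). The levels in the libraries were close, and 64.6% and 49.1% of these cells had an Areg UMI. When single cells were chosen by a per-cell gate on Wfdc18 instead, 14 control and 58 knockout cells remained and the ratio was 0.77 (0.60 to 0.94). The near equality thus depends on how the cells were chosen. The mean over cells of each cell's CPM gave -0.54.

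The second highest Areg level was in regulatory T cell-like cells, the Foxp3 cluster. It was 901 CPM (833 to 974) in 114 control cells and 656 CPM (623 to 690) in 275 knockout cells, a log2 ratio of -0.46 (-0.59 to -0.32). RNA released by tumour cells can enter other droplets. If the Epcam UMIs of this class had come with tumour RNA in the tumour cells' proportions, Areg would have stood at 18.8 and 16.8 CPM. The measured values were higher, but Krt8 was far lower beside Epcam in this class than in tumour cells. The part of RNA from tumour or gland cells in this Areg level was not tested. Among all cells of the Cd3e clusters, those with a Foxp3 UMI held Areg at 860 CPM (791 to 934) in the control library and 646 CPM (613 to 679) in that of the knockout, against 243 CPM (228 to 260) and 27.6 CPM (23.2 to 32.5) in those without. Areg was thus higher beside Foxp3 in both libraries. The intervals do not overlap, but they take UMIs as independent. In control and knockout, 1 cell held 14.5% and 8.51% of the Areg UMIs beside Foxp3, and 9.38% and 28.4% of those without. Chosen per cell by Foxp3, regulatory T cells gave a ratio of -0.74, and with called doublets kept the cluster gave 0.09.

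The Cd3e cells without Foxp3 differed more between the libraries. A small cluster led by Trdc, a gamma-delta T cell receptor gene, and by Il17a and Il23r held 476 Areg UMIs in 122 control cells (727 CPM, 663 to 795) and 4 UMIs in 19 knockout cells (26.1 CPM, 7.12 to 66.9), with 75.0% of the latter in 1 cell. The log2 ratio was -4.80 (-6.68 to -3.43), and the few knockout cells limit it: without the cell with the most Areg UMIs in each library it was -6.47. The remaining Cd3e clusters had 119 CPM (108 to 132) in the control library and 40.8 CPM (35.7 to 46.5) in that of the knockout, a ratio of -1.55 (-1.79 to -1.31). Within them, cluster 15, led by Cd8a and Cd8b1, had 162 and 71.4 CPM, and cluster 10, led by Themis and Cd28, had 21.1 and 28.4 CPM. Cluster 15 made up 190 of 380 control cells but 104 of 685 knockout cells of this class, and the mean of the ratios within the clusters was -0.38. Cells chosen by Cd3e without Foxp3, which take in the Trdc cluster, gave -3.09.

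In tumour cells Areg stood at 215 CPM (213 to 218) in the control library and 205 CPM (202 to 208) in that of the knockout, a log2 ratio of -0.07 (-0.10 to -0.05). An Areg UMI was found in 68.3% and 73.4% of tumour cells, or 14.6% and 15.1% with each cell thinned to 1000 UMIs. In endothelial-like cells, a host class with 6 and 2 Areg UMIs, it was found in 5.56% and 3.45% of cells at lower median depths of 14462 and 9626 UMIs. In NK cell-like cells the share was 4.93% and 4.94%, or 1.44% and 0.800% after thinning. The near equality in the class covers opposite parts. Within clusters Areg was higher in the knockout library in clusters 5 (132 against 289 CPM, ratio 1.13), 1 (373 against 667 CPM, 0.84), 7 (83.7 against 141 CPM, 0.76) and 8 (127 against 175 CPM, 0.46). It was slightly lower in cluster 0 (245 against 235 CPM, -0.06) and cluster 9 (211 against 197 CPM, -0.10). Cluster 1, the highest for Areg in both libraries, was the cluster that held 25.7% of control and 2.57% of knockout tumour cells. The mean of the 6 within-cluster ratios was 0.50, of the opposite sign to the class ratio.

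Myeloid cells held Areg at lower levels. In macrophage-like cells it was 26.4 CPM (24.5 to 28.4) in the control library and 44.9 CPM (41.8 to 48.1) in that of the knockout, a ratio of 0.77 (0.62 to 0.92). The Arg1 and Mmp12 macrophages of cluster 2 had 36.6 and 85.3 CPM, and those of cluster 4, led by Ccl8 and Apoe, 10.3 and 20.9 CPM. Cluster 18, led by the protease gene Ctsk and by Acp5, went the other way, with 31.7 and 17.2 CPM on 26 and 16 UMIs (-0.88, -1.87 to 0.07). The mean of the 3 within-cluster ratios was 0.45, and with called doublets kept the macrophage ratio was 0.27, both under the 1.5-fold limit. Monocyte-like cells had 44.0 and 24.4 CPM (-0.85, -1.20 to -0.50), but in at least 1 library over 25% of these UMIs lay in 1 cell.

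Mast or basophil-like cells had 86.2 CPM (55.2 to 128) and 399 CPM (354 to 449), but 87.5% of the 24 control UMIs lay in 1 cell. The ratio of 2.21 was 4.96 without the cell with the most Areg UMIs in each library, 0.98 as the mean over cells of each cell's CPM, and 0.50 (0.29 to 0.71) with called doublets kept, which ends the call. In cluster 11, with the mast cell protease genes Mcpt2, Mcpt4 and Cpa3, 28 control cells held 2 Areg UMIs and 43 knockout cells held 255, or 9.43 and 542 CPM. Cluster 23 was shallow, with a median of 951 UMIs per cell. Its leading genes included the basophil protease gene Mcpt8, also a leading gene of cluster 11, and the neutrophil marker Retnlg. Its identity is therefore less certain. It held 22 and 27 Areg UMIs, of which 95.5% and 92.6% lay in 1 cell. The fibroblast-like level of Areg (8.23 and 31.5 CPM) also rested on 1 cell, which held 82.1% and 60.6% of the UMIs. In the Ccr7 dendritic-like cells the levels were 193 and 28.4 CPM, with 39.4% and 53.6% of the UMIs in 1 cell.

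Hbegf, heparin-binding EGF, was highest in tumour cells, at 504 CPM (500.4 to 507) in the control library and 416 CPM (412 to 420) in that of the knockout, a ratio of -0.28 (-0.29 to -0.26). Nearly all tumour cells had an Hbegf UMI (93.4% and 94.2%, thinned 32.8% and 28.0%). As with Areg, clusters 1, 5, 7 and 8 had slightly higher levels in the knockout library, with ratios from 0.09 to 0.20, and clusters 0 and 9 lower ones (-0.20 and -0.38). The mean of the within-cluster ratios was -0.00. The part of tissue digestion in the Areg and Hbegf levels was not tested.

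Host cells with Hbegf included structural and myeloid classes. Wfdc18 mammary gland-like cells had 192 and 129 CPM (-0.58, -0.80 to -0.35). The ratio was -1.27 for cells of the Wfdc18 gate, but 0.28 as the mean over cells of each cell's CPM. Fibroblast-like cells had 175 and 135 CPM (-0.37, -0.54 to -0.20). Endothelial-like cells had 150 CPM (129 to 173) and 247 CPM (202 to 299.9), a ratio of 0.72 (0.36 to 1.08) over 54 and 29 cells. At a cluster resolution of 0.5 the endothelial ratio was -0.27, so its direction depends on the cluster's limits. Neutrophil-like cells (94.1 and 127 CPM), monocyte-like cells (92.1 and 58.9 CPM) and macrophage-like cells (57.5 and 55.0 CPM) followed. Of the monocyte-like UMIs over 25% lay in 1 cell in at least 1 library.

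In plasmacytoid dendritic-like cells Hbegf was 228 CPM (192 to 270) in 31 control cells and 5.37 CPM (2.46 to 10.2) in 122 knockout cells. The control UMIs lay in 16.1% of the cells, with 35.8% of them in 1 cell. The same control cells held the keratin gene Krt8 at 263 CPM, against 8.95 CPM in the knockout, and Epcam at 68.4 against 17.9 CPM. At the proportion of Hbegf to Epcam in tumour cells, this Epcam would carry 88.5 CPM of Hbegf in the control and 17.9 CPM in the knockout. The ratio of -5.41 was -2.52 (-2.92 to -2.12) with called doublets kept, -4.45 as the mean over cells of each cell's CPM and -6.68 among cells without an Epcam UMI. The part of tumour RNA in this difference was not tested.

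Tgfa, a ligand of the EGF receptor, was the abundant tumour ligand with the clearest difference. It stood at 72.4 CPM (71.0 to 73.7) in control and 125 CPM (123 to 127) in knockout tumour cells, 1.72-fold higher (log2 ratio 0.78, 0.75 to 0.82). The level was higher in the knockout library in each of the 6 tumour clusters, from 85.6 against 115 CPM in cluster 0 (0.43) to 38.3 against 73.3 CPM in cluster 7 (0.94). A Tgfa UMI was found in 74.3% and 88.0% of tumour cells, and in 6.19% and 11.03% when cells were thinned to 1000 UMIs. In the Cd3e clusters other than regulatory T cells and the Trdc cluster the share was 2.37% and 3.504% at median depths of 7286 and 6443 UMIs. Among the host classes Tgfa was seen in Krt5 mammary gland-like cells (57.3 and 38.5 CPM, on 16 and 49 UMIs), NK cell-like cells (29.6 and 34.0 CPM) and Wfdc18 mammary gland-like cells (20.4 and 32.4 CPM). NK cell-like cells had it in 16.2% and 16.6% of cells, a share that hardly differed between libraries (log2 ratio of CPM 0.20, -0.36 to 0.81). The gland ratio was 0.67 (0.06 to 1.33), and -0.18 when cells were chosen by the Wfdc18 gate.

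Btc, betacellulin, was highest in Wfdc18 mammary gland-like cells, at 16.6 CPM (10.4 to 25.2) in the control library and 26.6 CPM (21.6 to 32.3) in that of the knockout, on 22 and 100 UMIs. The ratio of 0.68 had an interval from -0.00 to 1.41. It was 1.33 for cells of the Wfdc18 gate and 0.13 as the mean over cells of each cell's CPM. In tumour cells Btc stood at 0.842 CPM (0.704 to 0.998) and 3.09 CPM (2.78 to 3.43), a ratio of 1.88 (1.58 to 2.18), or 3.67-fold. The UMI counts were 132 in 3823 control and 354 in 2335 knockout tumour cells, and 2.90% and 9.72% of cells had any. Btc was higher in the knockout library in each of the 6 tumour clusters, with ratios from 1.15 (cluster 8, 1.30 against 2.90 CPM) to 2.59 (cluster 1, 1.14 against 6.87 CPM). Wfdc18, which defines the gland cells at 2843 CPM, stood at 0.0697 to 0.285 CPM in the tumour clusters over both libraries. The macrophage-like cells had 0 Btc UMIs in 1511 control cells, which allows a share of cells with a UMI of up to 0.199%, and 1 UMI in 1054 knockout cells.

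Ereg, epiregulin, was nearly confined to fibroblast-like cells, the Col1a1 and Dcn cluster of 117 control and 105 knockout cells. Both libraries had 341 Ereg UMIs there, giving 100.3 CPM (89.9 to 112) in the control library and 81.4 CPM (73.0 to 90.5) in that of the knockout, a ratio of -0.30 (-0.52 to -0.08). Chosen by the per-cell Col1a1 gate, fibroblasts gave 0.27 (-0.04 to 0.59), so the direction depends on how the cells were chosen. An Ereg UMI was found in 29.1% and 33.3% of fibroblast-like cells, and 1 cell held 23.2% and 18.8% of the UMIs. In neutrophil-like cells 15 UMIs were counted in the control, 60.0% of them in 1 cell, and 0 in the knockout. Tumour cells held 9 UMIs in the control and 11 in the knockout library, so that the tumour ratio of 0.74 (-0.67 to 2.19) had an interval that included 0. Of the tumour clusters, cluster 9 alone had Ereg UMIs in both libraries, 3 and 2.

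Egf itself was rare, with 120 UMIs in the control and 193 in the knockout library. Its highest level was in Ccr7 dendritic-like cells, mature dendritic cells that migrate to lymph nodes, at 43.5 CPM (24.9 to 70.6) and 58.9 CPM (44.7 to 76.1), with 31.2% and 41.4% of these UMIs in 1 cell. The ratio there was 0.44, but -1.41 as the mean over cells of each cell's CPM and -0.43 among cells without an Epcam UMI. Conventional dendritic-like cells followed with 11.99 and 5.93 CPM and plasmacytoid dendritic-like cells with 8.34 and 5.37 CPM. Tumour cells had 0.293 CPM (0.215 to 0.391) and 0.489 CPM (0.369 to 0.635), on 46 and 56 UMIs (ratio 0.74, 0.15 to 1.33). When tumour cells were chosen by the per-cell Epcam gate the tumour ratio was -0.13. Within clusters the ratios were above 0 in 4 of the 5 clusters with Egf UMIs in both libraries and -0.35 in cluster 8, with a mean of 0.57.

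Egfr, the EGF receptor, was lower in knockout tumour cells. It stood at 5.01 CPM (4.67 to 5.38) in the control, on 786 UMIs, and at 0.515 CPM (0.392 to 0.664) in the knockout, on 59 UMIs. The log2 ratio was -3.28 (-3.69 to -2.90), or 9.74-fold lower. Among tumour cells, 12.7% (11.6 to 13.8) in the control library and 2.27% (1.71 to 2.96) in the other had an Egfr UMI, or 0.498% and 0.0858% after thinning. In the Cd3e clusters other than regulatory T cells and the Trdc cluster, which should lack the receptor, the share was 0.526% and 0.438% at lower depth. Levels were lower in the knockout library in each of the 6 tumour clusters. Cluster 8, the largest cluster of knockout tumour cells, had 10.2 CPM in the control and 0.450 CPM in the knockout (-4.50, -5.24 to -3.84). Cluster 5 had 269 control UMIs and 0 knockout UMIs, at least 13.2-fold lower against 3 counts in the cluster. The narrowest difference was in cluster 1 (4.12 and 1.44 CPM, -1.51, -3.40 to -0.13, on 166 and 4 UMIs). With tumour cells chosen by the per-cell Epcam gate, 2428 control and 1592 knockout cells, the ratio was -2.04 (-2.38 to -1.71).

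Fibroblast-like cells, the class with the highest Egfr level, did not share this difference. They had 196 CPM (181 to 211) in the control library and 219 CPM (205 to 234) in that of the knockout, a ratio of 0.16 (0.02 to 0.31), and 71.8% and 74.3% of these cells had an Egfr UMI. The intervals of this ratio and of the tumour ratio lie apart, but the difference between them has no test with 1 library per group. Fibroblast RNA in the tumour cells was low: over both libraries Col1a1 stood at 7598 CPM in fibroblast-like cells and at 1.06 to 2.40 CPM in the tumour clusters, and the 6 fibroblast markers together at 22.4 CPM in control and 16.2 CPM in knockout tumour cells, most of it Pdgfra. Krt5 mammary gland-like cells, with basal keratin genes, had 85.9 and 101 CPM, Wfdc18 mammary gland-like cells 80.9 and 54.0 CPM (-0.58, -0.93 to -0.23), and pericyte-like cells 62.3 and 28.6 CPM on 24 and 7 UMIs. Plasmacytoid dendritic-like cells had 25.01 CPM (14.0 to 41.2) and 25.7 CPM (18.6 to 34.6), in 32.3% and 24.6% of cells and with at most 13.3% of the UMIs in 1 cell. Macrophage-like cells had 28 and 7 UMIs (1.06 and 0.396 CPM).

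Erbb2, the receptor without a ligand of its own, had most of its UMIs in tumour cells, but its CPM in structural host classes was not far below theirs. Tumour cells had 13.3 CPM (12.7 to 13.8) in the control library and 14.4 CPM (13.7 to 15.1) in that of the knockout, a ratio of 0.12 (0.02 to 0.21), and 38.7% and 45.9% of them had a UMI (thinned 1.15% and 1.37%). Its within-cluster ratios lay between -0.15 and 0.52. Wfdc18 mammary gland-like cells had 26.5 CPM (18.4 to 36.8) and 23.9 CPM (19.2 to 29.4), fibroblast-like cells 8.82 and 11.7 CPM. Pericyte-like cells had 10.4 and 12.2 CPM, on 4 and 3 UMIs, and endothelial-like cells 8.90 and 9.69 CPM, on 11 and 4 UMIs. Krt5 mammary gland-like cells had 0 and 20 UMIs (0 and 15.7 CPM). No Erbb2 UMI was found in the Cd3e clusters other than regulatory T cells and the Trdc cluster, which allows a share of cells with a UMI of up to 0.789% of 380 control and 0.438% of 685 knockout cells. This limits detection at the depth of these cells, not the share of cells that express the gene.

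Erbb3, the neuregulin receptor with a weak kinase, was highest in Wfdc18 mammary gland-like cells, at 146 CPM (126 to 168) in the control library and 108 CPM (97.7 to 119) in that of the knockout (-0.43, -0.69 to -0.18). Its tumour level was 4.24 CPM (3.92 to 4.58) and 4.35 CPM (3.98 to 4.75), a ratio of 0.04 (-0.13 to 0.21). Within tumour clusters Erbb3 was higher in the knockout library in clusters 1 (1.14), 7 (0.81) and 5 (0.70), and the ratios of clusters 0, 8 and 9 lay between -0.57 and -0.21 with intervals that included 0. Plasmacytoid dendritic-like cells also held Erbb3, with 10.0 CPM (3.67 to 21.8) and 28.0 CPM (20.6 to 37.3), the latter in 27.9% of cells.

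**Figure D3:**
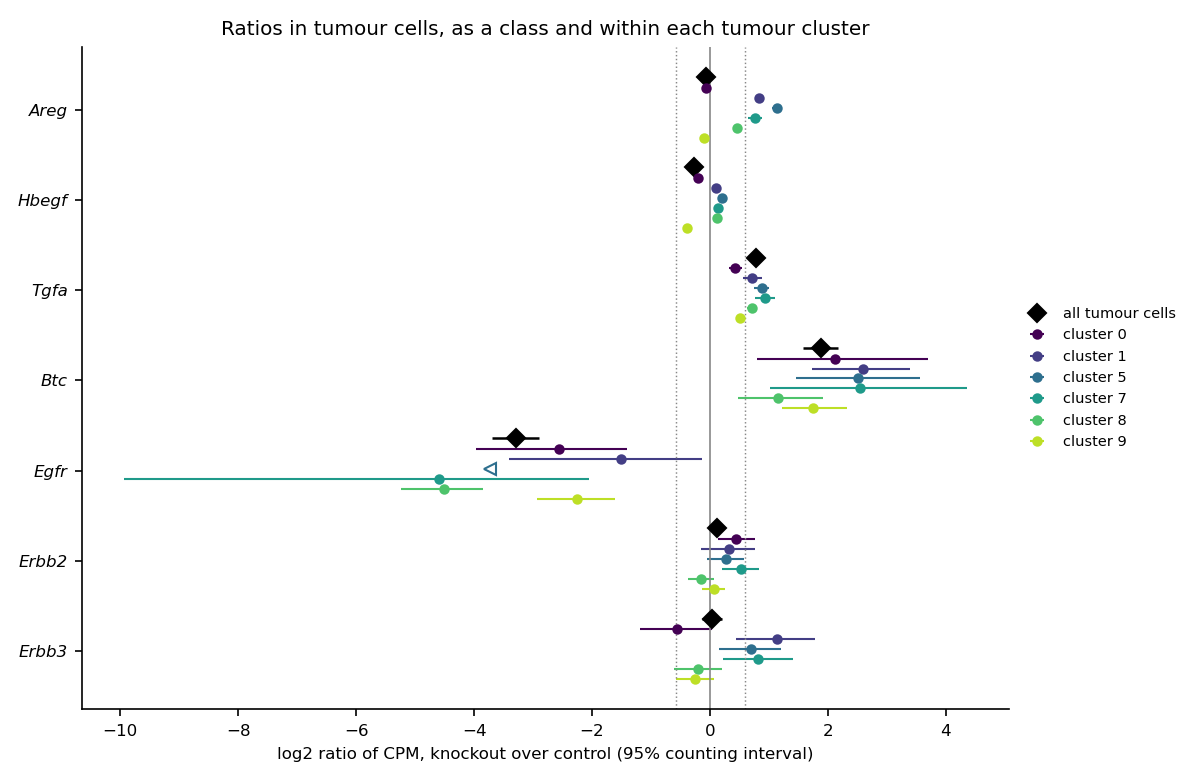
Log2 ratios of CPM, knockout over control (x axis), for 7 members in all tumour cells (diamonds) and in each of 6 tumour clusters (circles), with 95% counting intervals; the triangle is a bound against 3 counts and dotted lines mark 1.5-fold. Tgfa and Btc lie above 0 and Egfr below 0 in each cluster, and Areg is above 0 in 4 clusters while its class value is -0.07.

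In tumour cells all 9 members reached 20 UMIs. The call found 4 higher (Ereg, Tgfa, Btc and Egf) and 1 lower (Egfr), beside 15.1% of 16921 genes called higher and 8.44% called lower at the same fold. The median ratio of all these genes was 0.09. Tgfa, Btc and Egfr were called under each of the 10 alternatives of processing at the 1.5-fold limit, whereas the calls of Ereg and Egf, on 20 and 102 UMIs, were not. Elsewhere 2 of 7 members were called in Wfdc18 mammary gland-like cells (Tgfa and Btc higher), beside 25.6% of all genes in either direction. In regulatory T cell-like cells 1 of 3 was called (Hbegf higher, on 6 and 49 UMIs), beside 19.5%. Hbegf stood at 8.502 and 21.4 CPM there. The Epcam UMIs of this class would carry 44.0 and 34.1 CPM at the tumour proportion, above the measured Hbegf in both libraries. Krt8 was far lower beside Epcam in this class than in tumour cells, so Epcam is a poor measure of tumour RNA here. The part of tumour RNA in the Hbegf difference was not tested. In the other Cd3e clusters 4 of 4 were called (Tgfa higher, Areg, Hbegf and Erbb3 lower), beside 20.5%, although only the intervals of Areg and Hbegf excluded 0. Hbegf stood at 9.65 and 4.46 CPM in these clusters, against 14.4 and 4.82 CPM at the Epcam proportion. The part of tumour RNA was not tested here either. In macrophage-like cells 4 of 6 were called (Areg, Tgfa and Egf higher, Egfr lower), beside 12.8%, all but Areg on fewer than 60 UMIs. The interval of Egf (-0.08 to 1.82) included 0. Tgfa was near the Epcam proportion there, at 0.944 and 1.87 CPM against 1.03 and 1.29 CPM. In fibroblast-like cells 2 of 6 were called (Areg and Tgfa higher), beside 18.8%. Tgfa had 8 and 18 UMIs there, with an interval that included 0 (-0.40 to 2.28). Most of the Areg UMIs of each library lay in 1 cell.

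Ligand and receptor RNA were both found in tumour cells, but their joint detection per cell was not counted. Areg, Hbegf and Tgfa UMIs were found together in 54.2% of the control and in 66.6% of the knockout tumour cells, and none of these ligands in 2.72% and 1.37%. At least 1 of the 3 receptors was found in 51.0% and 53.1%, and most of these cells had an Erbb2 UMI. Egfr, whose product binds these ligands, had 786 and 59 UMIs in all tumour cells, against 2081 and 1648 for Erbb2. The median tumour cell held 2 and 3 UMIs of Areg, 13 and 13 of Hbegf, and 2 and 4 of Tgfa. Areg was unevenly spread: the highest control cell held 223 UMIs and the highest knockout cell 264. These shares move with the depth of a cell.

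Other genes of the family were also measured. Among Epgn, the neuregulin genes Nrg1 to Nrg4 and the receptor gene Erbb4, 5 genes had 20 UMIs. In knockout tumour cells 2 were called higher and 1 lower, beside 15.1% and 8.44% of all genes. Nrg2 had 4.65 and 11.4 CPM (ratio 1.30), Erbb4 0.287 and 0.506 CPM (0.82), and Nrg4 0.861 and 0.375 CPM (-1.20). Nrg2 was higher in each of the 6 tumour clusters (0.08 to 1.28) and Nrg4 lower in 5 of 6, whereas Erbb4 was higher in 3 of the 5 clusters with UMIs in both libraries. Nrg1, a ligand of ErbB3 and ErbB4, had 25.2 and 24.3 CPM in tumour cells and was higher in several host classes. Among myeloid cells it had 1902 and 1103 CPM in Ccr7 dendritic-like, 932 and 960.1 CPM in monocyte-like and 602 and 512 CPM in macrophage-like cells. Krt5 mammary gland-like cells had 791 and 427 CPM, and fibroblast-like cells 211 and 122 CPM. Erbb4 was found mainly in Wfdc18 mammary gland-like cells, at 250.2 and 152 CPM.

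Of the 10 genes for release of the ligands, 1 was called higher and 0 lower, beside 15.1% and 8.44% of all genes. It was the protease inhibitor gene Timp3, on 13 and 16 UMIs, and 2 tumour clusters had Timp3 UMIs in both libraries. Adam17, the main protease for several of these ligands, had 80.6 and 65.5 CPM in tumour cells (-0.30). None of the 25 adaptor and relay genes, from Grb2 to Stat3, was called, beside the same shares of all genes. The median ratio of this list was -0.03. Among 21 inhibitors and turnover genes 3 were called lower and 0 higher, beside 8.44% and 15.1% of all genes, with a median of -0.07. These were Spry1 (41.5 and 20.6 CPM, -1.01), a Ras pathway inhibitor, the phosphatase gene Dusp4 (40.7 and 20.6 CPM, -0.99) and Spred1 (83.1 and 54.95 CPM, -0.60), another inhibitor of Ras and Raf. All 3 were lower in each of the 6 tumour clusters, and their mean within-cluster ratios were -0.68, -0.73 and -0.72. Errfi1, which binds and inhibits EGF receptor, had 530.3 and 452 CPM (-0.23), and Lrig1, which promotes receptor loss, had 123 and 165 CPM (0.43).

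Of 13 genes induced by ERK signalling 3 were called lower and 0 higher, beside the same shares of all genes, with a median of -0.06. Ier3 had 1119 and 480 CPM (-1.22), the transcription factor gene Fos 1055 and 596 CPM (-0.83), and Phlda1 529 and 337 CPM (-0.65). Their differences were smaller within clusters. The mean within-cluster ratio was -0.51 for Ier3, which is among the leading genes of cluster 1, -0.37 for Fos and -0.33 for Phlda1, all under the 1.5-fold limit. Fos was lower in 4 of 6 clusters and close to 0 in clusters 5 and 7 (0.02 and 0.01), and no cluster passed 1.5-fold for Phlda1. Dusp6, a phosphatase of ERK, had 153 and 154 CPM (0.01). Fos and other immediate early genes also respond to tissue digestion. The 11 genes of a list of dissociation and immediate early genes had a median of -0.42. Of them 3 were called lower (Btg2 at -2.02, Hspa1b at -1.45, Junb at -0.74) and 0 higher, beside 8.44% and 15.1% of all genes. The summed level of the list was 4879 CPM in control and 3353 CPM in knockout tumour cells. Within clusters this sum was lower in the knockout library in cluster 9 (4443 and 2936 CPM) and cluster 0 (3486 and 2741 CPM), nearly equal in cluster 1 (6500 and 6341 CPM) and cluster 8 (3303 and 3291 CPM), and higher in cluster 5 (5274 and 5781 CPM) and cluster 7 (3305 and 3938 CPM). Junb was higher in 2 and lower in 4 of the 6 clusters, while Btg2 and Hspa1b were lower in each. Areg and Hbegf were likewise lower in the knockout library in clusters 9 and 0, and higher in clusters 1, 5, 7 and 8. The part of digestion in the ERK list and in these 2 ligands was not tested. Over all 85 listed genes with 20 UMIs, 3 were higher and 10 lower, beside 15.1% and 8.44% of all genes, so that the count of lower genes is near the background. Their median was -0.06, beside 0.09 for all genes.

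**Figure D4:**
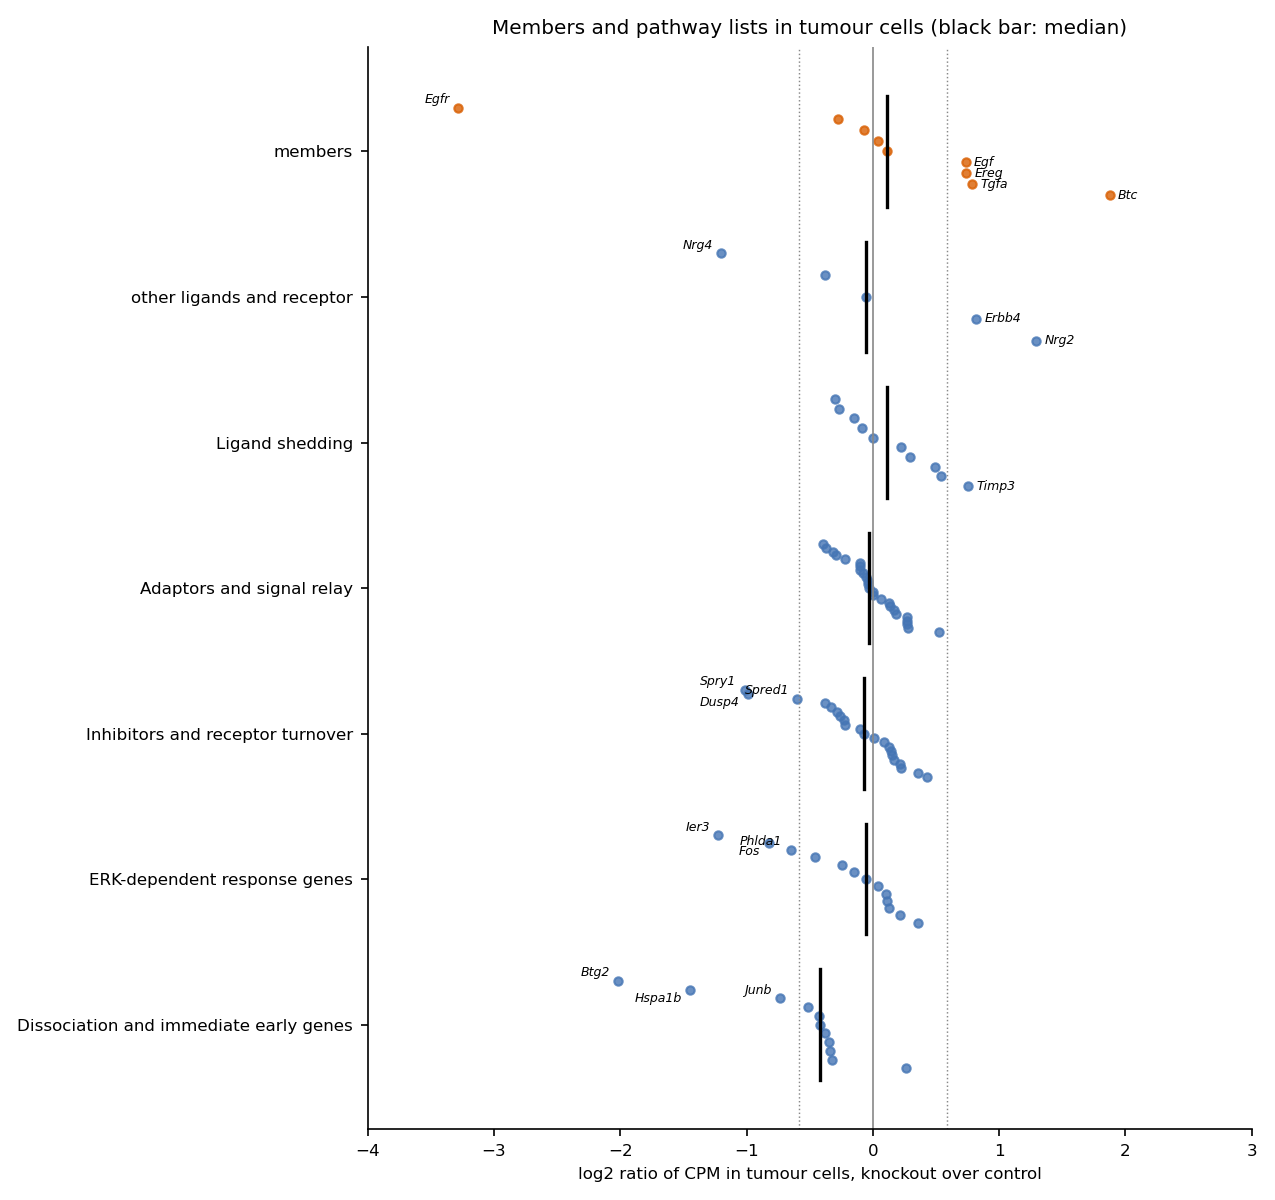
Log2 ratio of CPM in tumour cells, knockout over control (x axis), for each member and each gene of 6 lists with at least 20 UMIs; black bars are medians, dotted lines mark 1.5-fold and genes past it are named. Egfr is the lowest point, at -3.28, and the dissociation and immediate early genes have the lowest list median, -0.42.

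Profiles over cell classes were compared as a description. Over 28 points, 14 classes in 2 libraries, log2(CPM + 1) of each member was correlated with 14919 genes. These points share libraries and the classes share lineages, so no p-value is given. Areg was most like Grb7 (Pearson r 0.87), Grik5 (0.82) and 9230102O04Rik (0.80), and its correlation with its neighbour Btc was 0.61 and with Ereg -0.27. The correlation of Areg with Erbb3, on chromosome 10, was also 0.61. Hbegf was most like Map3k20 (0.94), Nupr1 and Dstn, and Tgfa like Fhl2 (0.84), Shoc2 and Arhgef5. Ereg was most like Sfrp4 (0.96), Zfp804a and Scn7a, Btc like Zfp804b (0.99), Ano9 and Lrrc26, and Egf like Siglecg (0.92), Flt3 and Adam23. Among the receptors Egfr was most like Dclk1 (0.89), Lca5l and Fxyd6, Erbb2 like Frk (0.94), Yap1 and Piezo2, and Erbb3 like Phyh (0.89), Ly6d and Ap1m2.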

How the data were processed

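The deposited matrix holds whole-number UMI counts per gene and cell barcode, made by the authors. Cell Ranger 2.1.1 and mm10 are named per the submitters' processing notes, and Cell Ranger 6.0.1 per the file headers, so the version is uncertain. How cells were called is not given in the sources used here. Barcodes ending in 1 were read as control and in 2 as knockout, from the library numbers in the labels alone. The libraries held 214163620 and 180774106 UMIs over 8038 and 7250 barcodes, and 13 barcode sequences occurred in both. Barcodes under 500 UMIs or 200 genes, or over 20% mitochondrial UMIs, were left out. Doublets called per library with Scrublet (scanpy 1.11.5) were removed, 206 (2.66%) and 202 (2.90%).

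Clusters came from 2000 variable genes without the 9 members, 30 principal components, 15 neighbours and the Leiden method (igraph 0.11.9, resolution 1.0). They were named from marker lists. A further 2 Cd3e clusters missed the naming rule and are called by their genes, and 1 shallow cluster of 95 control and 98 knockout cells with tumour markers and haemoglobin genes stayed unnamed. Beside the classes from clusters, per-cell gates on Epcam, Wfdc18, C1qa, S100a8, Cd3e, Foxp3, Cpa3 and Col1a1 were run, and 96.0% of the Epcam-gated cells lay in the tumour class. A gate needed at least 2 UMIs of its gene, or 1 for Cd3e, and 0 UMIs of the other gate genes apart from Foxp3. The Wfdc18 gate differed in that it needed at least 1 Epcam UMI. Cells of the Cd3e gate were divided by a Foxp3 UMI. Intervals are exact at 95%: Poisson for CPM, Clopper-Pearson for shares and conditional binomial for ratios. A count of 0 is bounded by 3 counts. Ratios and intervals were run on simulated independent Poisson counts, the model that the intervals assume. Such a run cannot show how they hold where many UMIs lie in 1 cell. Named genes are the 9 members, Fermt2, up to 3 genes in each direction per list past 1.5-fold in tumour cells, genes needed for their role, and the 3 most similar profiles of each member with at least 200 UMIs. Members and lists were chosen with earlier results of these data known. Intervals were computed with scipy 1.17.1 in Python 3.11.15, tables with pandas 2.3.3 and numpy 2.4.6, and figures drawn with matplotlib 3.10.9.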

Additional observations from a re-analysis of the deposited data

Results flagged for a closer look

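Areg and Hbegf were called in opposite directions in different cell classes, with counting intervals that excluded 0 and at most 25% of the UMIs in 1 cell. Areg was higher in the knockout library in macrophage-like cells (log2 ratio 0.77) and lower in the other Cd3e clusters (-1.55). Hbegf was higher in endothelial-like cells (0.72) and lower in conventional dendritic-like cells (-0.65) and in the other Cd3e clusters (-1.11, on 33 and 25 UMIs). At the proportion of Hbegf to Epcam in tumour cells, the Epcam UMIs would carry 14.4 and 4.82 CPM of Hbegf in the other Cd3e clusters, which had 9.65 and 4.46 CPM, and 123 and 45.6 CPM in the conventional dendritic-like cells, which had 39.0 and 24.9 CPM. In both classes Hbegf was thus at or below that level in each library. Conventional dendritic-like cells held Epcam at 95.3 and 45.6 CPM and Krt8 at 67.8 and 31.1 CPM. In tumour cells Epcam stood at 389 and 415 CPM and Krt8 at 1498 and 1497 CPM, so Krt8 was far lower beside Epcam in the dendritic class. The part of tumour RNA in these Hbegf differences was not tested. The Hbegf ratio of the endothelial-like cells was -0.27 at a cluster resolution of 0.5, and the Areg ratio of the macrophage-like cells was 0.27 with called doublets kept. The difference between classes was not tested, since there is 1 library per group.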

How the results depend on the processing

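Of 4 members called higher in tumour cells, 3 or 4 were called under most alternatives, 2 (Tgfa and Btc) with per-cell gates and as the mean of the ratios within clusters, and 1 (Btc) at a fold of 2. The mean within clusters called 2 lower (Egfr and Ereg). It leaves out clusters with no UMI in a library, as cluster 5 for Egfr, and for Ereg it rests on cluster 9 alone, with 3 and 2 UMIs, fewer than the 20 required of a class. Centring on the median of all genes moved the pathway median from -0.06 to -0.15. Of 30 ratios, 13 changed sign under at least 1 alternative, of which 4 had been called: Hbegf in endothelial-like cells at resolution 0.5 (-0.27), Egf in tumour cells (-0.13) and Tgfa in gland cells (-0.18) with per-cell gates, and Ereg in tumour cells within clusters (-0.83). The other 9 had not been called. They were Areg in tumour cells (0.02 with per-cell gates, 0.50 within clusters), gland cells (-0.54 as the mean over cells) and regulatory T cells (0.09 with doublets kept), Ereg in fibroblasts (0.27 with per-cell gates), Hbegf (0.28) and Erbb2 (0.17) in gland cells and Egf in Ccr7 dendritic cells (-1.41) as the mean over cells, Erbb3 in tumour cells (-0.05 when centred) and Egfr in plasmacytoid dendritic cells (lowest -0.58). Over 10 alternatives the tumour ratios ranged from 0.69 to 0.81 for Tgfa, 1.65 to 2.11 for Btc and -3.50 to -2.04 for Egfr. In all, 259 of 307 single-gene values stayed within the main interval. Leaving out cells with an Epcam UMI from host classes was chosen after seeing the data. Depth limits Ereg, Egf and Btc outside their main classes. No paired analysis was possible because each group has 1 library.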
